A study of Mus musculus with 10 samples.

Results

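Npas4, Arnt and Arnt2 were followed across the dentate gyrus libraries of 10 mice. The 3 genes were taken by their symbols from a table of raw read counts with 24982 rows, and all 3 were found there. They were chosen by the knockout to wild-type difference of Npas4, which stood among the lowest in an earlier look at the same libraries, so the knockout to wild-type differences of the 3 genes are given as a description, with no test. The 5 mice of the first group carry a global knockout of Fndc5, the gene of the membrane protein from which the myokine irisin is cleaved, and the 5 mice of the second group are wild type. All were male C57BL/6 mice aged 10 weeks, and each gave 1 library of its micro-dissected dentate gyrus, the hippocampal subfield made mostly of granule neurons. The knockout is in the whole body rather than in a chosen cell type. The labels name no stimulation before death, no allele and no shared litter.

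NPAS4 is a transcription factor of the bHLH-PAS family that neurons make within minutes of calcium entry during firing. It binds DNA only as a pair with ARNT or ARNT2, which are present at rest and also pair with other bHLH-PAS proteins such as HIF1A, EPAS1, AHR and SIM1. In hippocampal neurons NPAS4 is known for adjusting inhibitory synapses to activity.

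The gene starts show how different the 3 loci are, and they are printed because the inducible member and its partners are read against each other below. Npas4 lies on chromosome 19 from 4984355 to 4990316, Arnt on chromosome 3 from 95434388 to 95497240 and Arnt2 on chromosome 7 from 84246278 to 84410176 (GENCODE M21, GRCm38). Each line holds 250 bases before and 50 bases after the RefSeq start of the gene (GRCm38.p6), 5′ to 3′ on the strand of the gene, at chr19:4989922-4990221 (minus strand) for Npas4, chr3:95434140-95434439 (plus strand) for Arnt and chr7:84409989-84410288 (minus strand) for Arnt2. Capitals mark TGACG on either strand, the half-site of the cAMP response element (CRE) to which CREB binds.
Npas4: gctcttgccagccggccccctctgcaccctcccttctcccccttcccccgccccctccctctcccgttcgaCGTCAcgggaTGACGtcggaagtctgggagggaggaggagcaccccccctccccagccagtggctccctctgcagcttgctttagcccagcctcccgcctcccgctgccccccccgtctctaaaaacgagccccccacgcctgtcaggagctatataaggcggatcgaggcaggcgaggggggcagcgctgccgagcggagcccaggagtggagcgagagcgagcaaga
Arnt: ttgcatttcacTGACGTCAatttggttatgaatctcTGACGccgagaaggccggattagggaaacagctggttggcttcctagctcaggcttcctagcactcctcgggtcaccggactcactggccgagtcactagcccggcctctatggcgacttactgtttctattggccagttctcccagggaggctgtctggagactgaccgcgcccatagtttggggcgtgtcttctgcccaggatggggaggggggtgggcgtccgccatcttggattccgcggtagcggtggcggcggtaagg
Arnt2: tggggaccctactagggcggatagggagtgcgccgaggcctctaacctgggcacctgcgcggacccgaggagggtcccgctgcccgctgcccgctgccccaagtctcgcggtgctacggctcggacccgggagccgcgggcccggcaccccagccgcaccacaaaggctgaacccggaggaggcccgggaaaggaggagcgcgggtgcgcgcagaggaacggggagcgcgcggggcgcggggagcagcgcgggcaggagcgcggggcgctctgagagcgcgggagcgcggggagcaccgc
Counted from +1 at the start, the Npas4 window held the half-site in 2 places, at -179 to -175 and at -169 to -165, in opposite orientations. The Arnt window held it in 3 places, and 2 of these overlap in 1 full CRE (TGACGTCA) at -239 to -232. The Arnt2 window held none, and 76.7% of its bases were G or C, against 69.3% for Npas4 and 59.3% for Arnt. Of 32841 promoter windows of this length, 20.8% held the half-site and 1.79% the full element on either strand. No window of the 3 genes held TCGTG, the core of the NPAS4 and ARNT site (in 16.0% of all windows), CACGTG, the E-box (7.15%), or a CArG box, the SRF site (1.63%). These matches are letters in a window and say nothing about which factor is bound. The whole Npas4 window and the RefSeq start of Arnt2 lie inside the GENCODE spans given above, so positions and matches depend on the start chosen.

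The libraries held 26226375 to 43802079 counts each. Fndc5 stood between 45.4 and 56.7 CPM (counts per 1e6 counts, scaled by TMM) in the knockouts, against 69.2 to 80.3 CPM in the wild types, with no overlap, so the level in knockouts was 68.1% of that in wild types (log2 fold change -0.55, edgeR adjusted p 0.000495). The labels do not say which part of the gene is deleted. Fndc5 was the 1 gene of 14867 tested past an adjusted p of 0.05 (0.00673% of genes). All 7 granule neuron markers were counted in every group, with a summed level of 1451 to 1577 CPM in knockouts and 1318 to 1516 CPM in wild types. The 6 interneuron markers summed to 433.3 to 479.9 CPM in knockouts and 455.9 to 542.5 CPM in wild types, the 4 markers of CA1 to 74.3 to 87.4 CPM and 73.9 to 89.4 CPM, and the 3 of choroid plexus to 31.6 to 39.7 CPM and 30.4 to 37.0 CPM. In such bulk tissue, fewer cells of a type and less RNA per cell cannot be told apart.

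Npas4 was scarce in every mouse and lower in the knockouts. It had 4.83, 4.30, 3.96, 5.29 and 5.16 CPM in knockout mice 1 to 5, against 5.41, 10.1, 7.46, 10.1 and 6.95 CPM in wild-type mice 1 to 5. Wild-type mice 2 and 4 were highest, and wild-type mouse 1 lay just above the knockouts. The groups did not overlap, but the gap between knockout mouse 4 and wild-type mouse 1 was 0.126 CPM. Those mice had 157 and 178 counts of Npas4, with exact 95% Poisson intervals of 4.49 to 6.18 CPM and 4.65 to 6.27 CPM, which cover counting error only. The 2 mice were therefore not separable by counting. Over all genes tested, 0.437% had every knockout mouse below every wild-type mouse and 0.457% the reverse.

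**Figure D1:**
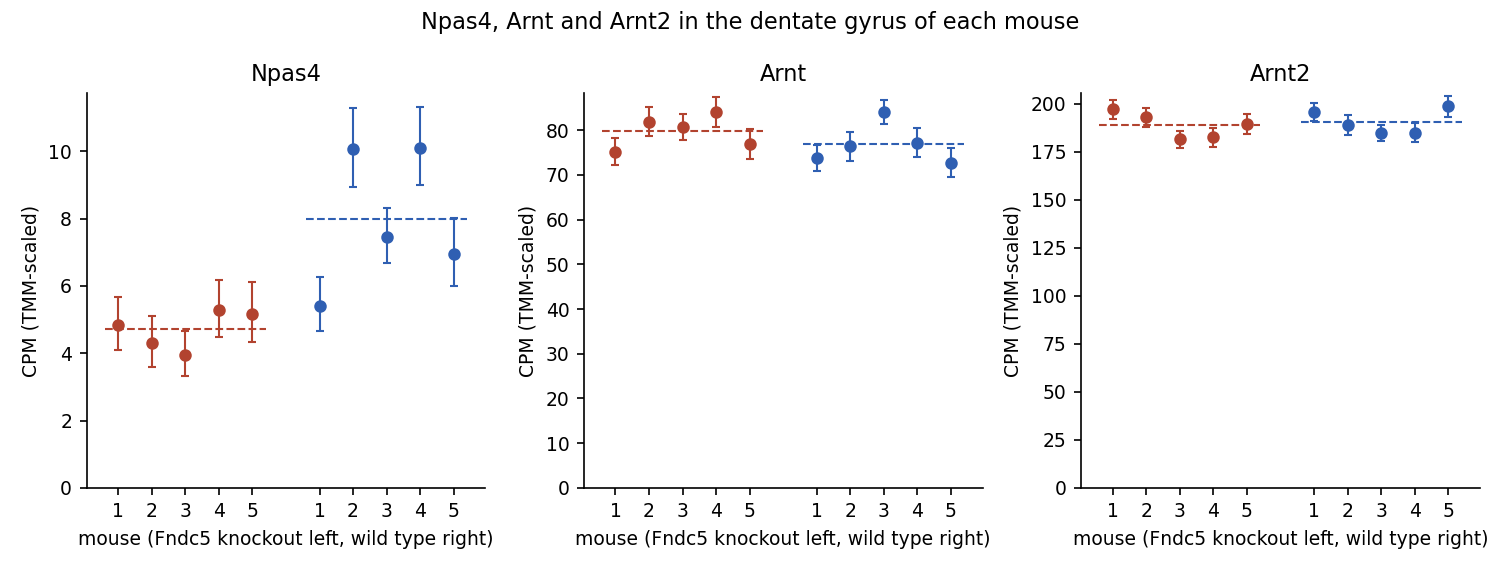
CPM (TMM-scaled) of Npas4, Arnt and Arnt2 in each of 5 Fndc5 knockout (left, red) and 5 wild-type mice (right, blue), with bars for exact 95% Poisson intervals of the count and dashed lines for group means. Npas4 runs from 3.96 to 5.29 CPM in knockouts and from 5.41 to 10.1 CPM in wild types, while the groups overlap for Arnt and Arnt2.

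The Npas4 mean was 4.71 ± 0.567 CPM in knockouts and 8.0 ± 2.05 CPM in wild types (SD, n = 5 each), a log2 fold change of -0.76 (SE 0.15, 95% interval -1.09 to -0.44). Npas4 in knockouts was thus 58.9% of the wild-type level (95% interval 47.1% to 73.5%). Of the 14867 genes, 4 had a more negative log2 fold change, all at a lower mean CPM than Npas4. Npas4 was picked by this difference, so its rank and interval describe that choice and are no test.

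Npas4 varied more among these wild types than among these knockouts, and this difference in spread was not tested. In knockouts the coefficient of variation of Npas4 was 12.04%, where counting alone would give 8.42%, and in wild types it was 25.6%, where counting alone would give 6.34%. The variance of the counts was 2.15 times that of counting in knockouts and 16.3 times in wild types. For the same relative spread this ratio grows with the mean count, which was higher in wild types. Wild-type mouse 1, the lowest of its group for Npas4, also had the lowest granule marker mean of the wild types (-0.151 on the log2 scale relative to the wild-type mean) and the highest interneuron marker mean (0.240, the other wild types -0.0843 to -0.0356). It was the lowest wild type for oligodendrocyte (-0.142), microglia (-0.0892) and endothelial markers (-0.263) as well. The part of these in its Npas4 level was not tested. Without that mouse the Npas4 log2 fold change was -0.88, and without any other single mouse it was between -0.81 and -0.67.

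The partners did not follow Npas4. Arnt, also called HIF-1 beta, had 75.2, 81.9, 80.7, 84.0 and 76.9 CPM in knockout mice 1 to 5, against 73.7, 76.4, 84.0, 77.2 and 72.8 CPM in wild-type mice 1 to 5. Knockout mouse 4 and wild-type mouse 3 were highest, and the groups overlapped over most of their range. On the log2 scale Arnt differed by 0.05 (SE 0.045, 95% interval -0.04 to 0.15), which runs from 97.0% to 110.9% of the wild-type level.

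Arnt2, the paralog best known from neurons, had 197.2, 193.1, 181.6, 182.6 and 189.5 CPM in knockout mice 1 to 5, against 195.8, 189.1, 184.9, 184.9 and 198.7 CPM in wild-type mice 1 to 5. Both genotypes spanned almost the same range, and no mouse stood apart. On the log2 scale it differed by -0.01 (SE 0.036, 95% interval -0.09 to 0.06), between 93.9% and 104.4% of the wild-type level. Its sign turned to 0.001 without wild-type mouse 5. The coefficients of variation were 3.56% in knockouts and 3.32% in wild types for Arnt2, and 4.52% and 5.75% for Arnt, all above the 1.29% to 2.04% that counting would give. Within Arnt2 lies Gm30873, an annotated antisense gene on the other strand, and whether the counting used strand is not given in the sources used here, so reads of the 2 cannot be told apart.

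Per length, Arnt2 was the more abundant partner in each of the 10 mice. With the merged exons of each gene as its length (7689 bases for Arnt2 and 8007 bases for Arnt), the level of Arnt2 per kilobase over that of Arnt was 2.47 ± 0.184 in knockouts and 2.59 ± 0.220 in wild types (SD, n = 5 each). The ratio ranged from 2.26 to 2.73 in knockouts and from 2.29 to 2.84 in wild types, so the genotypes overlapped. With the longest annotated transcript as the length (6228 and 4325 bases) the ratio was lower, at 1.65 ± 0.123 in knockouts and 1.73 ± 0.147 in wild types, and the counts per gene do not show which transcripts were present.

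Among 19 bHLH-PAS genes, Arnt2 had rank 3 per length in both genotypes, at 24.6 ± 0.875 CPM per kilobase in knockouts and 24.8 ± 0.822 CPM per kilobase in wild types. Above it were Epas1 (HIF-2 alpha), at 33.9 ± 1.88 CPM per kilobase in knockouts and 35.1 ± 2.02 CPM per kilobase in wild types, and the coactivator gene Ncoa1, whose mice overlapped those of Epas1. Hif1a, which encodes the oxygen-labile partner of ARNT, was next at 13.0 ± 0.613 CPM per kilobase in knockouts and 13.4 ± 0.376 CPM per kilobase in wild types, with no overlap with Arnt2. Arnt had rank 6, at 9.96 ± 0.450 CPM per kilobase in knockouts and 9.59 ± 0.552 CPM per kilobase in wild types, and overlapped Ncoa3 but no gene below it. That place depends on the length used. With longest transcripts, an alternative added after the data were seen, Arnt was at 18.4 ± 0.834 CPM per kilobase in knockouts and 17.8 ± 1.02 CPM per kilobase in wild types and had rank 4, overlapping Hif1a, while Arnt2 kept rank 3 and Npas4 ranks 16 and 14.

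Npas4 was near the bottom of the family. It was at 1.14 ± 0.137 CPM per kilobase in knockouts, where it had rank 16 and overlapped Hif3a and Ahr, and at 1.93 ± 0.495 CPM per kilobase in wild types, where it had rank 14 and overlapped its neighbours in the order, Npas3 and Hif3a. Hif3a, another partner of ARNT, varied most, from 0.744 to 2.92 CPM per kilobase in knockouts and from 0.671 to 3.01 CPM per kilobase in wild types. Ahrr and Sim2 were below 0.2 CPM per kilobase in every mouse. Sim1, a partner of ARNT2 in hypothalamic neurons, had 0 counts in all libraries, which allows up to 0.068 to 0.115 CPM per library (3 counts).

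**Figure D2:**
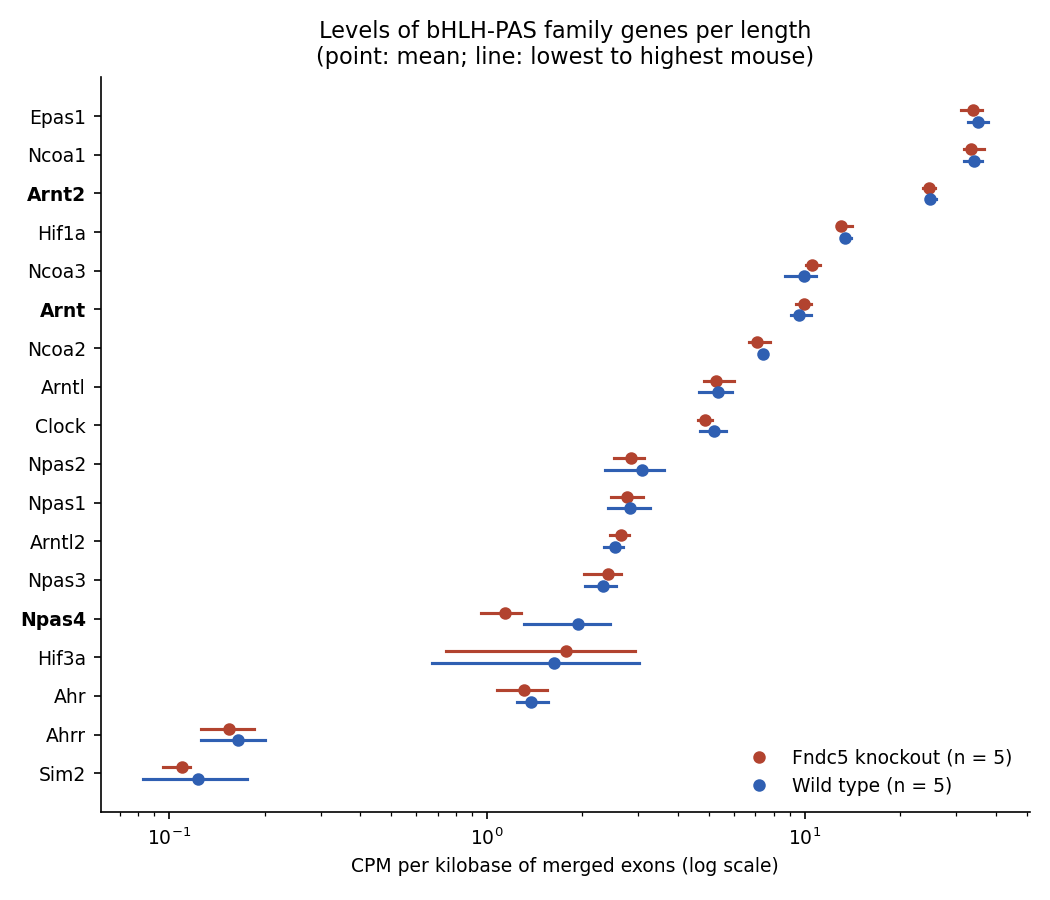
Mean CPM per kilobase of merged exons (log scale) of 18 bHLH-PAS genes in 5 Fndc5 knockout (red, upper) and 5 wild-type mice (blue, lower), with lines from the lowest to the highest mouse. The lines of the genotypes overlap for Arnt2 and for Arnt, Npas4 lies lower in knockouts (1.14 against 1.93 CPM per kilobase), and Sim1, with 0 counts, is not drawn.

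None of the 15 tested of 16 other bHLH-PAS genes passed the threshold in edgeR, DESeq2 or limma-voom, where the 3 tools called 0.00673%, 0.0202% and 0.00673% of all genes. At an unadjusted p under 0.05, 0 were lower and 0 higher, against 3.75% lower and 2.54% higher of all genes, and 1 was lower when wild-type mouse 1, 2 or 5 or knockout mouse 2 was left out. Log2 fold changes were below 0 for 11 of 15 (49.3% of all genes), with a median of -0.04, against 0.002 over all genes. The clock gene Clock was at -0.09 (SE 0.051), its paralog Npas2 at -0.12 (SE 0.096), and the coactivator genes Ncoa2 and Ncoa3 at -0.06 (SE 0.042) and 0.08 (SE 0.056).

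NPAS4 with ARNT2 has been described as bound to the NuA4 acetyltransferase complex at activity-regulated sites in neurons, with ETL4 as a further part. None of the 20 genes of this complex passed in any of the 3 tools. They were split 10 to 10 around 0, with a median log2 fold change of -0.002. Of all genes, 49.3% lay below 0. Morf4l2 was at -0.09 (SE 0.043), with 153.7 ± 4.46 CPM in knockouts and 163.7 ± 10.4 CPM in wild types. It was the 1 member with an unadjusted p under 0.05, where 3.75% of all genes were lower and 2.54% higher. That call was lost when any of wild-type mice 1, 2 and 3 or knockout mice 1, 2, 3 and 4 was left out, or under upper-quartile scaling. Actl6a was at 0.13 (SE 0.077), Vps72 at 0.07 (SE 0.048) and Epc2 at 0.06 (SE 0.035).

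Of 15 genes placed upstream of Npas4 (calcium channels, CREB and its cofactors, MEF2 and SRF factors, and repressors of the gene), 0 passed in the 3 tools and 6 were below 0. The median log2 fold change was 0.002, and 49.3% of all genes lay below 0. At an unadjusted p under 0.05, 2 were lower and 2 higher, against 3.75% and 2.54% of all genes. The 2 lower were Camk4, a calcium-dependent kinase of CREB, at -0.16 (SE 0.053), and Cacna1c, the L-type channel CaV1.2, at -0.11 (SE 0.046). Leaving out wild-type mouse 2 or 4, or knockout mouse 1 or 3, made the number of lower genes 1.

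The 2 higher genes of this group were a CREB coactivator and a repressor. Crtc2 had 43.8, 40.3, 42.7, 42.1 and 42.6 CPM in knockout mice 1 to 5, against 40.0, 36.3, 39.8, 40.1 and 38.3 CPM in wild-type mice 1 to 5, so that every knockout mouse was above every wild-type mouse (0.457% of all genes), with a log2 fold change of 0.12 (SE 0.043). Rest, the repressor that silences neuronal genes outside neurons and binds at Npas4, had 3.81, 4.60, 3.10, 4.04 and 4.04 CPM in knockout mice 1 to 5, against 2.74, 3.42, 2.84, 3.74 and 3.31 CPM in wild-type mice 1 to 5. The genotypes overlapped, with knockout mouse 3 below 3 of the wild types, and the log2 fold change was 0.29 (SE 0.12). Each library held 89 to 140 counts of Rest.

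Genes reported to be bound or driven by NPAS4 in neurons lay mostly below 0. Of the 12 genes 11 were tested (Stac was filtered out at 0.25 CPM in knockouts and 0.389 CPM in wild types). Of these, 10 had a log2 fold change below 0 (49.3% of all genes), and the median was -0.12, against 0.002 over all genes. The list was chosen with earlier results of these data known. None passed the threshold in edgeR, DESeq2 or limma-voom, which called 0.00673%, 0.0202% and 0.00673% of all genes. At an unadjusted p under 0.05, 3 were lower and 0 higher (3.75% and 2.54% of all genes), and the number of lower genes was 1 under upper-quartile scaling or without wild-type mouse 4, 5 without wild-type mouse 3 or with no low-count filter, and 6 with the mouse number as a block. The 6 interneuron markers were also all below 0, with a median log2 fold change of -0.10 and 2 of them lower at an unadjusted p under 0.05 (Gad1 at -0.08 and Vip at -0.30), while 2 of the 7 granule neuron markers were below 0, with a median of 0.05 and 2 higher at that p. None of these markers passed the threshold in the 3 tools, and their part in the values of the targets and of the immediate early factors was not tested.

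Nptx2, which encodes a secreted pentraxin that gathers AMPA receptors, had 12.3, 13.2, 11.8, 14.1 and 13.5 CPM in knockout mice 1 to 5, against 11.4, 15.7, 17.6, 20.3 and 16.0 CPM in wild-type mice 1 to 5. Wild-type mouse 1 was lowest of all 10 mice, and the other wild types were above every knockout. The log2 fold change was -0.32 (SE 0.11, edgeR adjusted p 0.788), and -0.43 without wild-type mouse 1. Bdnf, the neurotrophin gene, had 68.3, 77.9, 69.6, 90.0 and 75.0 CPM in knockout mice 1 to 5, against 70.6, 89.5, 82.8, 95.1 and 85.2 CPM in wild-type mice 1 to 5. The genotypes overlapped, since wild-type mouse 1 was among the lowest and knockout mouse 4 among the highest. Its log2 fold change was -0.15 (SE 0.077, edgeR adjusted p 0.789). The kinase gene Plk2 was at -0.12 (SE 0.056), the potassium channel gene Kcna1 at -0.08 (SE 0.031), and Mdm2, whose product degrades p53, was the 1 gene above 0, at 0.05 (SE 0.043).

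The other immediate early factors, transcribed by the same kind of stimuli, were below 0 for 15 of 15, with a median of -0.19. This was already seen in the earlier look at these libraries and is no independent evidence for Npas4. None passed in edgeR or limma-voom, and Fosb passed in DESeq2, where 0.0202% of all genes did. At an unadjusted p under 0.05, 9 were lower and 0 higher (3.75% and 2.54% of all genes, of which 49.3% lay below 0), but 5 were lower when wild-type mouse 2 or 4 or knockout mouse 3 was left out, and 4 when knockout mouse 1 or 5 was. Npas4, which was picked by this difference, had the most negative log2 fold change of all 16 genes (-0.76, SE 0.15). Next were Egr2 (-0.62, SE 0.29), Fos (-0.58, SE 0.18) and Fosb (-0.51, SE 0.10), whose 95% intervals overlapped that of Npas4. Egr2 had only 9 to 54 counts per library, and the mice of the genotypes overlapped for Egr2, Fos and Fosb.

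Wild-type mouse 1 did not stand with the knockouts for Fosb and Fosl2 as it did for Npas4. For Fos it had 5.26 CPM, close to the 4.98 CPM of knockout mouse 4, and wild-type mouse 5, at 3.64 CPM, overlapped the knockouts. Fosb, an AP-1 subunit, had 5.24, 5.58, 5.50, 6.80 and 6.43 CPM in knockout mice 1 to 5, against 8.36, 8.91, 8.51, 9.53 and 6.76 CPM in wild-type mice 1 to 5. There wild-type mouse 5 overlapped the knockouts and wild-type mouse 1, the next lowest of its group, was above every knockout. Fosl2 had 53.2, 50.9, 48.2, 52.1 and 50.2 CPM in knockout mice 1 to 5, against 63.5, 60.9, 55.4, 59.0 and 55.6 CPM in wild-type mice 1 to 5, with wild-type mouse 1 highest and no overlap (log2 fold change -0.21, SE 0.046). It was the 1 of the 15 factors without overlap, where 0.437% of all genes had every knockout mouse below every wild-type mouse. The nuclear receptor gene Nr4a2 was at -0.19 (SE 0.074).

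**Figure D3:**
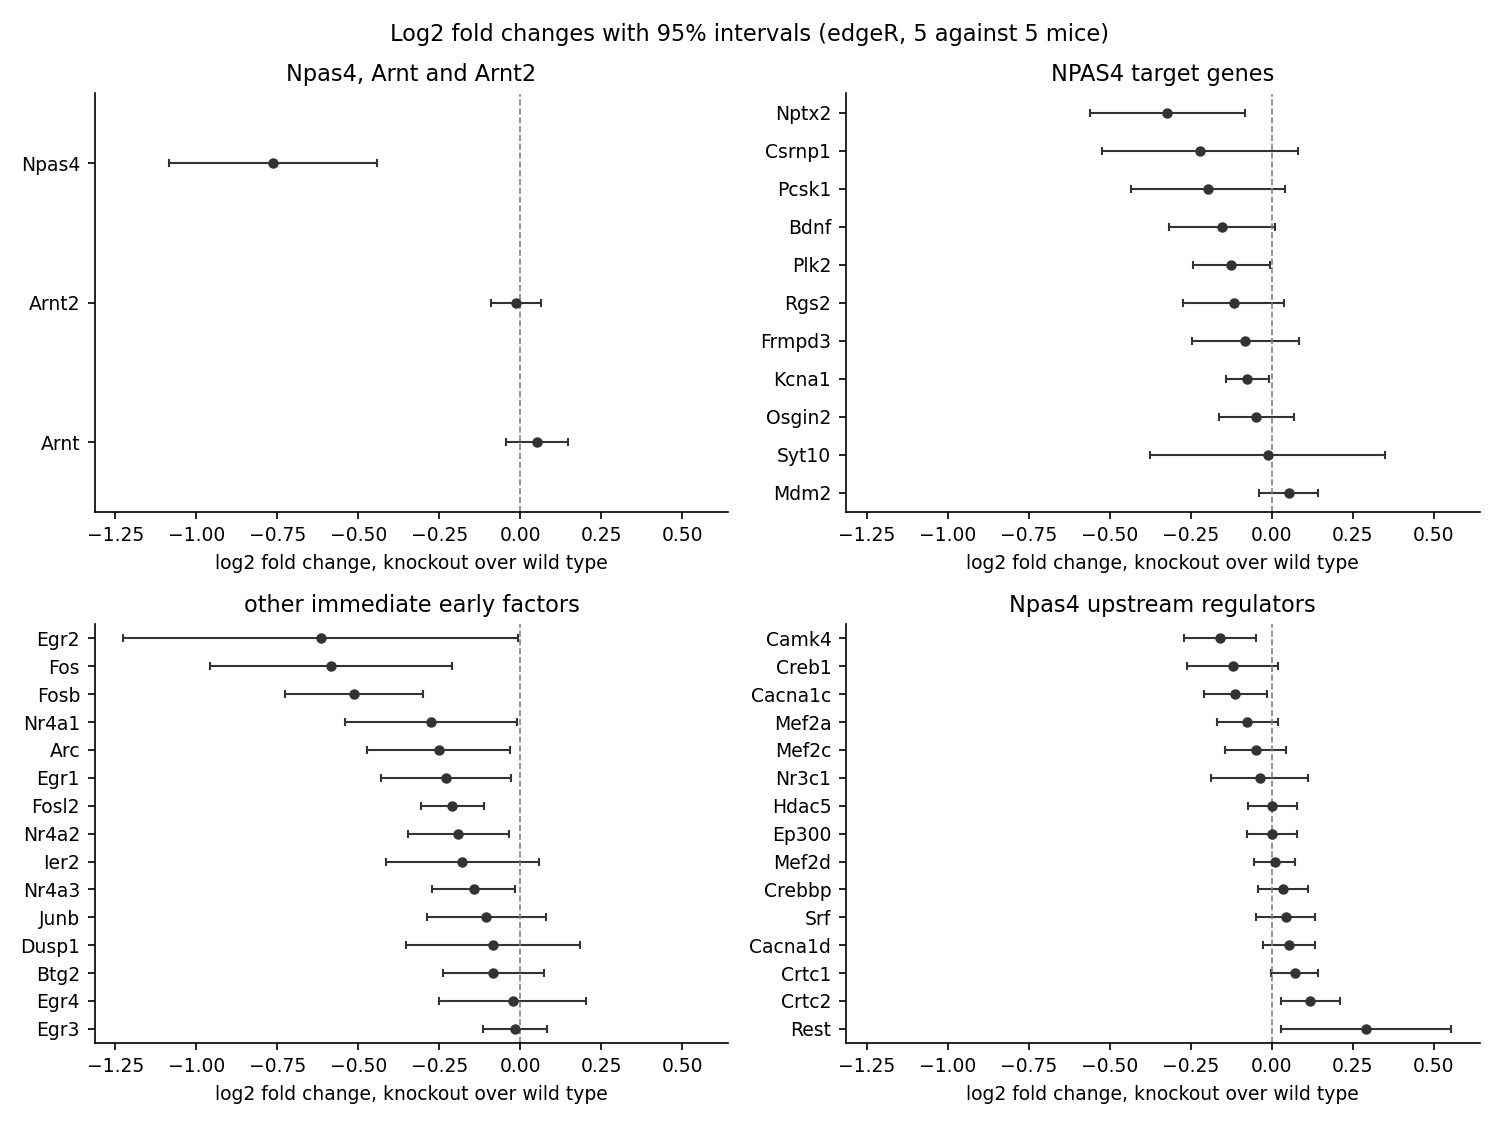
Log2 fold changes (knockout over wild type) with 95% intervals from edgeR for Npas4, Arnt and Arnt2 and for 3 groups of related genes, 5 against 5 mice. Npas4 lies at -0.76, its partners at 0.05 and -0.01, the targets between -0.32 and 0.05, and the upstream genes on both sides of 0.

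Whether the 3 genes vary together among mice was read after subtracting each genotype mean from the log2 CPM, which removes the difference used to pick them. Over the 10 mice, 29 relations were computed (3 among the members, and Npas4 with 15 immediate early factors and 11 targets), each with an exact two-sided permutation of mice within genotypes, and 0 of 29 passed after adjustment. Arnt and Arnt2 ran opposite to each other, with a Pearson r of -0.74 (exact permutation p = 0.0221, adjusted p 0.320). The rank-based rho was -0.80 (exact permutation p = 0.0119, adjusted p 0.318). Here and below, rho is the Pearson r of the ranks after each genotype mean of the ranks was subtracted, so it differs from a plain Spearman value. Without the 2 mice farthest from the median of Arnt, r was -0.67, and with any single mouse left out it was between -0.85 and -0.67. Marker list means and the log2 total count were taken the same way over the 10 mice, as a description. The 2 genes ran opposite with some of them and alike with others. For Arnt, r was 0.58 with granule neuron markers, -0.50 with interneuron markers, -0.26 with astrocyte markers, -0.47 with choroid plexus markers and 0.62 with total counts. For Arnt2, r was -0.51, 0.57, 0.63, 0.69 and -0.36 in the same order. With microglia markers r was -0.07 for Arnt and 0.40 for Arnt2. With CA1, CA3, hilar mossy cell, oligodendrocyte and endothelial markers the signs were alike. There r was -0.16, -0.18, 0.43, -0.12 and 0.29 for Arnt, and -0.23, -0.29, 0.08, -0.10 and 0.08 for Arnt2. The part of these in the relation was not tested. The shift is small in size: the mice spanned 75.2 to 84.0 CPM of Arnt in knockouts and 72.8 to 84.0 CPM in wild types.

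Npas4 had an r of 0.16 with Arnt (rho 0.17, exact permutation p 0.731 and 0.672, adjusted p 0.993 and 0.886) and of -0.37 with Arnt2 (rho -0.24, exact permutation p 0.312 and 0.485, adjusted p 0.603 and 0.782). Without the 2 mice farthest from the median of Npas4 these were -0.05 and -0.10, so neither relation held. Among targets the highest were Nptx2, with r 0.77 (rho 0.65, exact permutation p 0.0397 and 0.0867, adjusted p 0.383 and 0.468), and Bdnf, with r 0.76 (rho 0.72, exact permutation p 0.0109 and 0.0328, adjusted p 0.316 and 0.318). Without the 2 farthest mice r was 0.26 for Nptx2 and 0.50 for Bdnf, so the first rests on those mice. Without wild-type mouse 1 alone, r was 0.49 for Nptx2 and 0.58 for Bdnf. The other targets ran from -0.57 (Frmpd3) to 0.58 (Rgs2). Marker means gave values of like size over the same mice: r to Npas4 was -0.68 for interneuron, 0.66 for oligodendrocyte and 0.62 for granule neuron markers, and their part in the target relations was not tested.

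**Figure D4:**
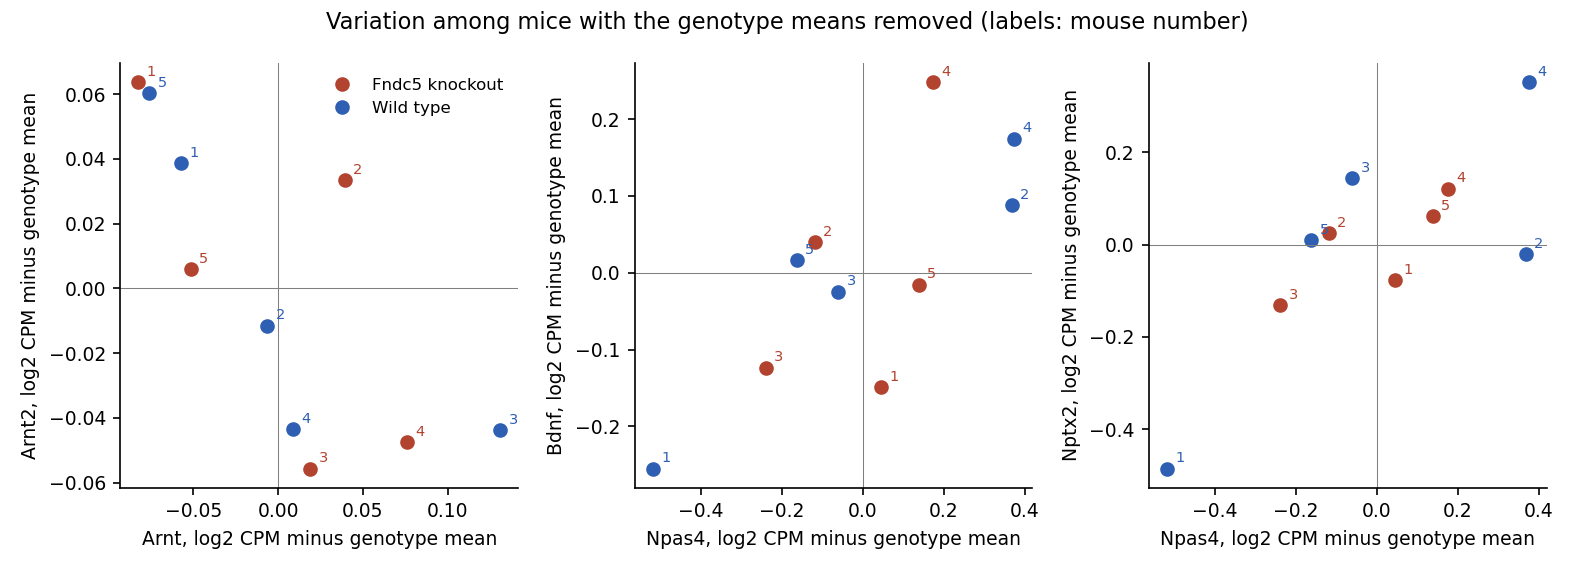
Log2 CPM minus the genotype mean in each of 10 mice (5 Fndc5 knockout in red, 5 wild type in blue, numbered) for Arnt against Arnt2, Npas4 against Bdnf and Npas4 against Nptx2. Arnt and Arnt2 run opposite (r -0.74), and wild-type mouse 1 is at the lower left end of both Npas4 plots.

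With the 15 immediate early factors, r to Npas4 ranged from -0.15 (Nr4a3) to 0.75 (Btg2), with a median of 0.32, and 11 were above 0. Egr3 was at 0.62, Egr1 at 0.57, Fosb at 0.56, Fos at 0.50, Nr4a1 at 0.49, Egr2 at 0.33, Arc at 0.32, Nr4a2 at 0.23, Fosl2 at 0.04 and Egr4 at 0.003, and Ier2, Junb and Dusp1 were at -0.02, -0.06 and -0.07. For r, their lowest exact permutation p was 0.0792 (Egr3, adjusted p 0.438, rho 0.60, and r 0.55 without the 2 farthest mice). For rho it was 0.0272 (Fosb, rho 0.71, adjusted p 0.318 by exact permutation, and r 0.68 without the 2 farthest mice). The value of Fosl2 turned on wild-type mouse 1, without which it was 0.82, and that of Nr4a3 was then 0.50.

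The genes most like Npas4 in this measure, of 10940 ranked, were Aamdc (r 0.97), Sbsn (0.95), Cwf19l2 (0.93), Pcdhb14 (0.93), Fam84b (0.92) and Parvb (0.92). None of them is on the lists of immediate early factors or targets. As many as 12 genes had an r of at least 0.9 and 17 an r of -0.9 or less, so such values arise on both sides with 10 mice, which share tissue and library preparation. Most like Arnt were Rbm12b2 (0.94), Zfp169 (0.92) and Ewsr1 (0.92), which encode RNA-binding proteins and a zinc finger protein, and most like Arnt2 were the astrocyte GABA transporter gene Slc6a11 (0.96), Brinp3 (0.94) and Sez6 (0.92). These were chosen for their r and carry no test.

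**Figure D5:**
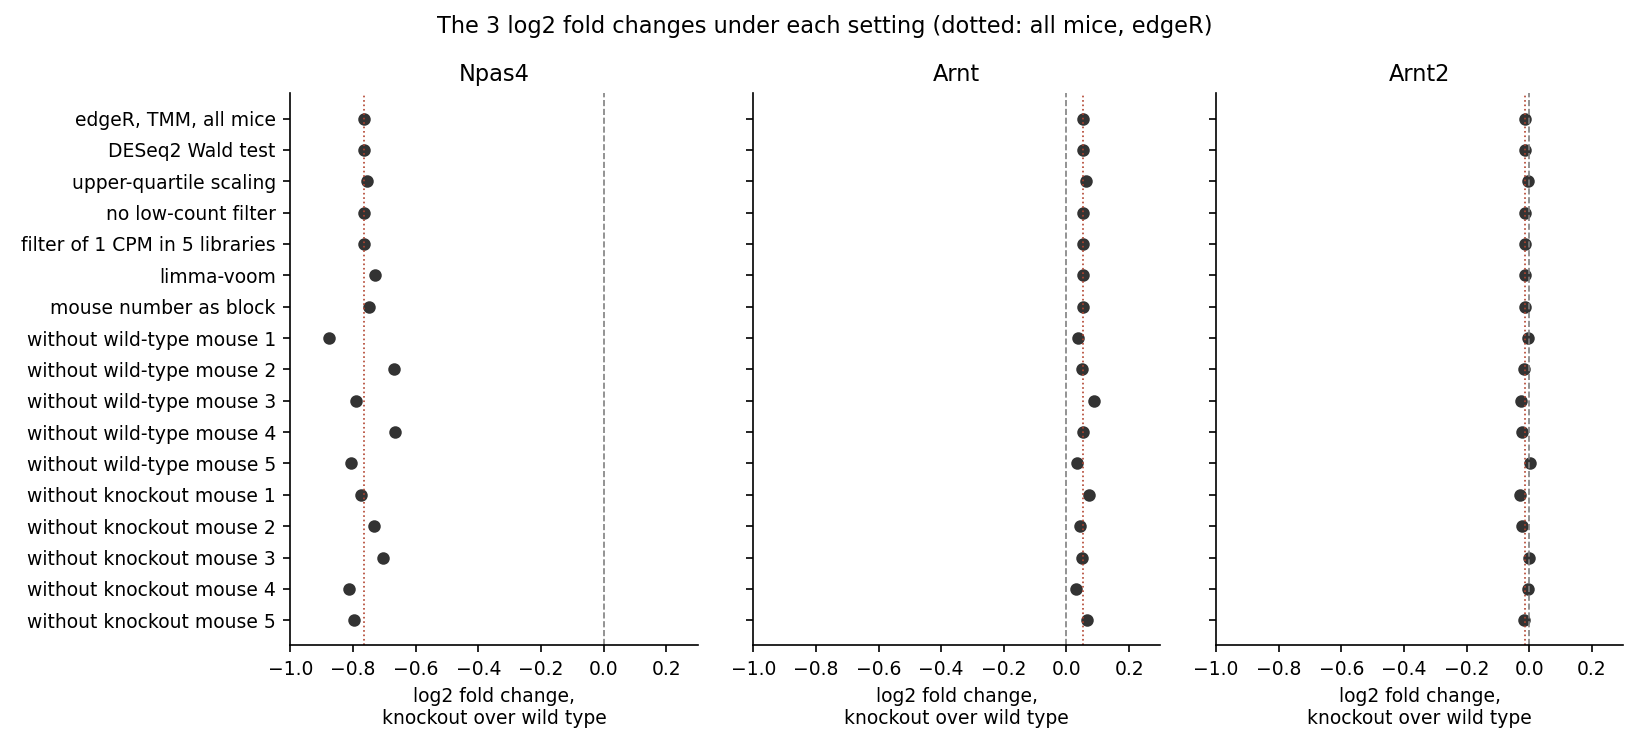
Log2 fold changes (knockout over wild type) of Npas4, Arnt and Arnt2 with all 10 mice in edgeR and under 16 other settings, each a point, with a dotted line at the first value and a dashed line at 0. Npas4 stays between -0.88 and -0.67, Arnt between 0.03 and 0.09, and Arnt2 between -0.03 and 0.001.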

How the data were processed

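RNA was measured in the dentate gyrus of 5 Fndc5 knockout and 5 wild-type mice. Per the labels' protocols, stranded mRNA libraries started from 500 ng of RNA and were read from 1 end over 75 bases. The authors deposited whole-number read counts for each gene symbol, with no normalization. The tools Cufflinks 2.2.1 and STAR 2.5.1b and the build mm10 are listed, per the submitters' processing notes. Their roles, the strand setting and the handling of reads with several matches were not stated there. Of 24982 symbols, 24490 matched GENCODE M21. Chi-square tests of counts told apart all 20 pairs of same-genotype libraries (4.47 or more per degree of freedom). The labels do not name litters, so p-values measure the spread between these mice.

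Genes were filtered with filterByExpr, which left 14867, scaled by TMM and compared with edgeR 4.0.16 (glmQLFit and glmQLFTest, R 4.3.3). The threshold was an adjusted p of 0.05 (Benjamini-Hochberg, across every gene that passed the filter). Likeness used log2 CPM with a prior count of 2, over genes of at least 5 CPM. The fits were tested on simulated counts. Alternatives were DESeq2 1.42.0, limma-voom (limma 3.58.1), upper-quartile scaling, all genes unfiltered, genes with 1 CPM or more in 5 libraries, a block for mouse number, and each library left out in turn. The members and gene lists were chosen with earlier results of these data known. Named genes are the members, Fndc5, the 4 of each reported list with the smallest p, all immediate early factors, and the genes most like each member (6 for Npas4, 3 each for the others), passing over predicted genes. Mdm2, Stac, Gm30873, Frmpd3, Rgs2, Gad1, Vip and the bHLH-PAS genes outside that rule were named after their values were seen. A further gene list is not reported here.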

Additional observations from a re-analysis of the deposited data

Results flagged for a closer look

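Of 116 groups of 5 values checked for a mouse far from its group (the members, the named genes and the list means in each genotype), 1 was found, against about 5.8 that chance gives at 1 in 20. Rbm12b2, picked for its likeness to Arnt, was at 18.0 CPM in wild-type mouse 3, the library with the most counts, and at 13.1 to 14.1 CPM in the other wild types. Arnt was also highest among wild types in that mouse, and r between the 2 genes was 0.92 to 0.97 with single mice left out.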

How the results depend on the processing

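The count of genes past the threshold was 1, and 3 with the DESeq2 Wald test, 8 with the mouse number as a replicate block and between 1 and 3 when each library was dropped in turn (3 when it was wild-type mouse 1, 2 when it was knockout mouse 2). The cause was not tested. Npas4 was among the genes past the threshold in DESeq2, with the block and without wild-type mouse 1, and in no other setting. It was picked by this difference, so these calls are no test of it. The deviations of mice with equal numbers had correlations of 0.209, 0.204, 0.108, 0.00901 and 0.0282. Only 3 of these exceed 0.1 and the labels name no pairs, so the mice were treated as unpaired. A pairing is not excluded by this: 6 of 10 mice were closest to the mouse of their own number, which is a hint and not part of the design. The log2 fold changes of the 3 members moved by less than their spread among mice in all 16 alternatives each. Past the threshold, the list of other immediate early factors had 1 member in DESeq2 (Fosb) and 0 in the other 15 alternatives, and the other 4 lists reported had 0 in all 16. The Arnt2 to Arnt ratio per length, 2.53 over all mice, was 1.69 with longest transcripts, since the lengths of the 2 genes differ more there, and the wild-type level of Arnt was 17.8 in place of 9.59 CPM per kilobase. No scaling moved the median of all genes by over 0.1. At 131 to 328 counts of Npas4 per library, counting error limits comparisons between single mice.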
